A study of Homo sapiens with 12 samples.

Results

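Transcript levels of 9 genes that encode subunits of RNA polymerase III (Pol III) were examined in HL60 cells. The genes were POLR3A, POLR3B, POLR3C, POLR3D, POLR3E, POLR3F, POLR3G, POLR3GL and POLR3K, and they were found by symbol among the 59251 genes of the count table. The members were chosen by their counts and fold changes in these 4 groups, so that these values are given as a description. Where the calls of the fit over all genes are counted for the members, they are no independent test of them. HL60 (HL-60 in the labels) is an established human myeloid leukemia cell line, so that all 12 RNA-Seq libraries came from 1 line. The non-treated cells received neither drug. ATRA cells received 1 µM all-trans retinoic acid (ATRA), which induces myeloid maturation, for 48 h. CDK4/6i cells received 1 µM palbociclib, an inhibitor of the cell cycle kinases CDK4 and CDK6, for 48 h. CDK4/6i+ATRA cells received both drugs at these doses for 48 h. Each group held 3 libraries, which the labels number as biological replicates. The labels do not say how the cultures were kept apart, so that errors are the spread between these libraries.

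Pol III synthesizes short RNAs that cells need in bulk, among them transfer RNAs, the 5S ribosomal RNA and the U6 spliceosomal RNA. POLR3A and POLR3B form the catalytic core. POLR3D and POLR3E form a pair that is related to the Pol II factor TFIIF, and POLR3K is related to the Pol II cleavage factor TFIIS and serves RNA cleavage and termination. POLR3C and POLR3F join with either POLR3G or POLR3GL in a subcomplex that contacts the initiation factor TFIIIB. POLR3G and POLR3GL are paralogues that take the same place in the enzyme, so that cells can hold 2 forms of Pol III. POLR3G is known to be high in embryonic stem cells and many tumor cells and to decline upon differentiation, whereas POLR3GL is found broadly in differentiated tissues.

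The libraries held 12230923 to 18679544 counts in genes, and the 3 CDK4/6i+ATRA libraries were the shallowest at 12230923 to 14415276. Of the 11 HL60 marker genes, 8 were detected, with MPO, which encodes the granule enzyme myeloperoxidase, highest in non-treated cells. The granule protease genes ELANE, AZU1 and PRTN3 had 0 counts in all libraries. HL60 cells are known to express these genes, and whether annotation or counting gave the zeros was not tested. The summed level of 5 maturation genes was 178 to 187 CPM (counts scaled to library size with edgeR's TMM factors) in non-treated cells, 4442 to 4555 in ATRA cells, 568 to 598 in CDK4/6i cells and 5562 to 5795 in CDK4/6i+ATRA cells. That of 5 proliferation genes was 2342 to 2360 CPM, 2856 to 2939 CPM, 307 to 324 CPM and 53.5 to 55.8 CPM in the same order. The proliferation genes differed under ATRA: mean levels went from 662 to 1027 CPM for MKI67, 778 to 1113 for TOP2A and 102 to 123 for CCNB1. CCNA2 went from 251 to 249 CPM and MCM2 from 557 to 387 CPM. The part of either shift in the values below was not tested. In such bulk libraries, fewer cells of a type and less RNA per cell cannot be told apart. The epithelial and fibroblast lists summed to at most 1.01 CPM in any library, and the T cell list rested on CD4, which myeloid cells also express. The B cell list (at most 24.9 CPM) rested on CD79A and the erythroid list (at most 12.3 CPM) on EPOR, with HBB, HBA1, MS4A1 and CD8A at 0.

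POLR3G was the member with the largest fall and POLR3GL the member that was higher in every treated group. POLR3G lies at chr5:90473929-90514557 on the plus strand (hg38), and had 1298 counts over all libraries. Its level was 14.3, 11.7 and 10.97 CPM in the 3 non-treated libraries and 1.72, 2.04 and 1.60 CPM in the ATRA libraries. It was 10.0, 9.03 and 12.1 CPM in the CDK4/6i libraries and 0.641, 0.979 and 1.57 CPM in the CDK4/6i+ATRA libraries. All 6 libraries under ATRA were below all 6 without it, and the CDK4/6i libraries overlapped with the non-treated libraries. The raw counts behind the CDK4/6i+ATRA values were 7, 11 and 19, against a limit of 3 counts that corresponds to 0.155 to 0.275 CPM, so that this level is the least precise of the set. Relative to non-treated cells, the mean level was 14.5% under ATRA, 84.3% under CDK4/6i and 8.63% under both. The fitted log2 fold change was -2.78 ± 0.18 (SE, n = 3 against 3) under ATRA, -0.24 ± 0.13 under CDK4/6i and -3.50 ± 0.22 under CDK4/6i+ATRA. Against ATRA alone, CDK4/6i+ATRA stood at -0.72 ± 0.31, which ran from -1.13 without replicate 3 of CDK4/6i+ATRA to -0.47 without its replicate 1. The call in this comparison was lost without replicate 1 or replicate 2 of CDK4/6i+ATRA or replicate 2 of ATRA. Replicate 3 of CDK4/6i+ATRA was the highest of its group, and without it the change from non-treated cells was -3.91. Without replicate 3 of CDK4/6i the change under CDK4/6i was called lower, at -0.36. POLR3G shares 390 exon bases with MBLAC2 on the opposite strand (1432 counts in all), and the counting's strand setting is not given in the sources used here. MBLAC2 was 7.07 ± 0.481 CPM in non-treated cells, 3.56 ± 0.420 CPM under ATRA, 15.4 ± 1.09 CPM under CDK4/6i and 2.28 ± 0.0442 CPM under both (SD, n = 3), and its part in the POLR3G values was not tested.

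POLR3GL lies on chromosome 1, plus strand, where the deposited gene model spans 145927627 to 145978848 because it includes upstream exons. Its level was 15.8, 14.7 and 15.7 CPM in non-treated libraries, 21.1, 21.5 and 19.4 CPM under ATRA, 20.0, 19.7 and 20.7 CPM under CDK4/6i, and 24.2, 27.2 and 21.9 CPM under CDK4/6i+ATRA. All 9 treated libraries were above the 3 non-treated libraries, and the ATRA and CDK4/6i libraries overlapped each other. The log2 fold change was 0.42 ± 0.09 under ATRA, 0.39 ± 0.09 under CDK4/6i and 0.66 ± 0.09 under CDK4/6i+ATRA (SE). The last was 0.40 with scaling by library size alone. CDK4/6i+ATRA exceeded CDK4/6i by 0.27 ± 0.09 and ATRA by 0.24 ± 0.09 on the log2 scale, but these differences were -0.0029 and -0.067 with scaling by library size alone. Without replicate 2 of CDK4/6i+ATRA they were 0.18 and 0.15 and neither was called, and the difference from ATRA was not called without replicate 3 of ATRA (0.19).

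**Figure D1:**
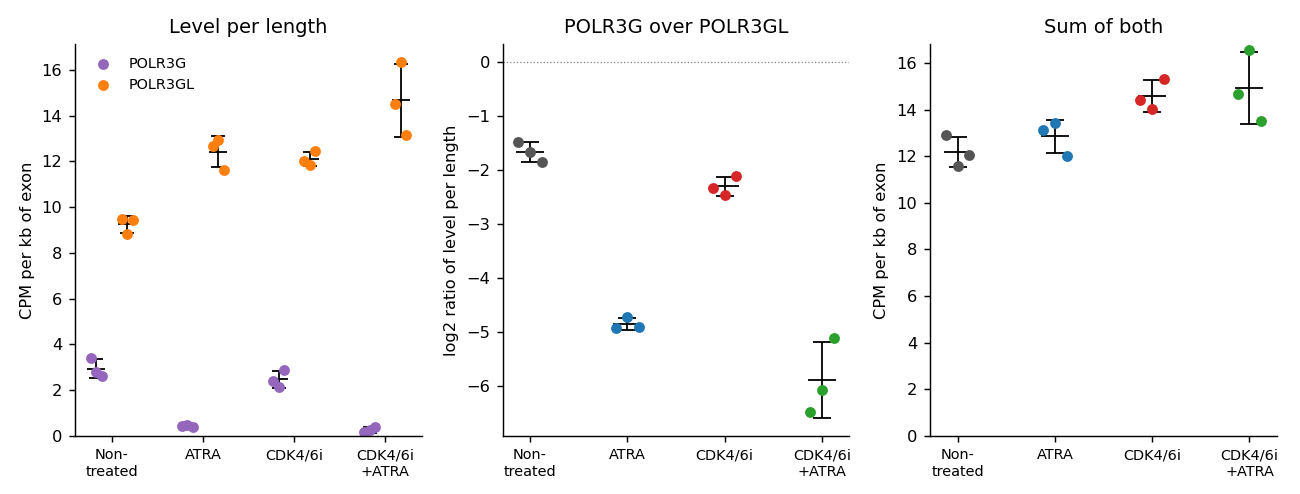
POLR3G and POLR3GL in the 12 libraries, as level per length (left, CPM per kb of exon), as the log2 ratio of both levels (middle, pseudocount 0.5 added to the counts) and as their sum (right, CPM per kb). Points are libraries, and horizontal marks with bars are the mean ± SD of 3 libraries. The ratio lies between -1.85 and -1.48 in non-treated libraries and between -6.48 and -5.11 in CDK4/6i+ATRA libraries.

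To compare levels between genes, CPM was divided by the exon length in kb. On this scale POLR3G was 2.93 ± 0.414 and POLR3GL 9.25 ± 0.378 CPM per kb in non-treated cells (SD, n = 3), so that POLR3GL was already the more abundant paralogue. POLR3G made up 24.0% ± 2.35 of the summed level of both in non-treated cells, 3.30% ± 0.272 under ATRA, 16.9% ± 1.74 under CDK4/6i and 1.73% ± 0.905 under CDK4/6i+ATRA. The POLR3G to POLR3GL log2 ratio was -1.48, -1.66 and -1.85 in non-treated libraries, -4.93, -4.72 and -4.91 under ATRA, -2.33, -2.46 and -2.11 under CDK4/6i, and -6.48, -6.07 and -5.11 under CDK4/6i+ATRA. The ranges of the 4 groups did not overlap. The mean shift from non-treated cells was -3.19 under ATRA, -0.635 under CDK4/6i and -4.22 under CDK4/6i+ATRA. POLR3GL was thus 3.17-fold, 28.9-fold, 4.93-fold and 59.1-fold above POLR3G in the order non-treated, ATRA, CDK4/6i and CDK4/6i+ATRA. With the canonical transcript lengths of GENCODE v44, a choice made after seeing the data, these folds were 3.50, 31.9, 5.44 and 65.3. The sum of both paralogues was 12.2 ± 0.656, 12.8 ± 0.725, 14.6 ± 0.673 and 14.9 ± 1.53 CPM per kb in the same order. The paralogue plot shows this sum beside a POLR3G level that dropped under ATRA.

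Of the core subunits, POLR3A (chr10:77975149-78029515, minus strand) had 85.1 to 85.8 CPM in non-treated libraries, 58.7 to 60.7 CPM under ATRA, 92.3 to 93.4 CPM under CDK4/6i and 57.5 to 58.9 CPM under CDK4/6i+ATRA. Both groups under ATRA were below both groups without it. The log2 fold change of POLR3A was -0.52 ± 0.05 under ATRA, 0.12 ± 0.04 under CDK4/6i and -0.56 ± 0.05 under CDK4/6i+ATRA. POLR3B (chr12:106357748-106510198, plus strand), the other catalytic subunit, had 31.1, 32.0 and 31.4 CPM in non-treated libraries and 31.3, 33.5 and 30.6 CPM under CDK4/6i. It had 21.4, 19.5 and 19.3 CPM under ATRA and 11.9, 15.6 and 13.5 CPM under CDK4/6i+ATRA. The CDK4/6i libraries overlapped with the non-treated libraries, and the CDK4/6i+ATRA libraries were below all others. The log2 fold change of POLR3B was -0.65 ± 0.08 under ATRA, 0.012 ± 0.071 under CDK4/6i and -1.20 ± 0.09 under CDK4/6i+ATRA. Against ATRA alone the core subunits had different values: CDK4/6i+ATRA stood at -0.031 ± 0.050 for POLR3A and at -0.55 ± 0.09 for POLR3B. Scaling by library size alone gave -0.34 for POLR3A and -0.86 for POLR3B in this comparison.

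POLR3D (chromosome 8, plus strand) had 24.7, 22.05 and 24.8 CPM in non-treated libraries, 10.9, 10.8 and 10.4 CPM under ATRA, 29.6, 27.3 and 29.9 CPM under CDK4/6i, and 12.8, 14.2 and 16.3 CPM under CDK4/6i+ATRA. It was the member for which CDK4/6i+ATRA lay between ATRA and non-treated cells with no overlap. Its log2 fold change was -1.16 ± 0.09 under ATRA, 0.28 ± 0.08 under CDK4/6i and -0.72 ± 0.09 under CDK4/6i+ATRA. Against ATRA alone CDK4/6i+ATRA stood at 0.44 ± 0.10, which was 0.13 and not called with scaling by library size alone. POLR3E (chr16:22297409-22335096, plus strand), its partner, had 73.5, 69.4 and 65.8 CPM in non-treated libraries, 32.1, 32.8 and 32.9 CPM under ATRA, 57.7, 60.5 and 61.1 CPM under CDK4/6i, and 25.9, 26.9 and 23.6 CPM under CDK4/6i+ATRA. The 4 groups did not overlap. The log2 fold change of POLR3E was -1.09 ± 0.06 under ATRA, -0.22 ± 0.05 under CDK4/6i and -1.45 ± 0.06 under CDK4/6i+ATRA. The deposited model of POLR3E also has exons on 1 additional contig of the assembly, so that its reads may be uncertain, and only the length on chromosome 16 was used.

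POLR3K (chr16:46407-53608, minus strand) had 41.3, 43.5 and 40.4 CPM in non-treated libraries, 30.2, 26.7 and 30.6 CPM under ATRA, 27.4, 25.6 and 26.0 CPM under CDK4/6i, and 8.88, 9.71 and 13.5 CPM under CDK4/6i+ATRA. All treated libraries were below the non-treated libraries, and the CDK4/6i+ATRA libraries were below all others. The log2 fold change of POLR3K was -0.52 ± 0.07 under ATRA, -0.66 ± 0.08 under CDK4/6i and -1.95 ± 0.10 under CDK4/6i+ATRA. The last was -2.17 without replicate 3 of CDK4/6i+ATRA, the highest library of its group. POLR3K was thus lower with either drug given alone.

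POLR3C and POLR3F are the partners of the paralogues. POLR3C (chr1:145824200-145844402, plus strand) had 82.4 to 89.4 CPM in non-treated libraries, 73.8 to 76.2 CPM under ATRA, 70.3 to 75.3 CPM under CDK4/6i and 74.3 to 81.6 CPM under CDK4/6i+ATRA. Its log2 fold change was -0.21 ± 0.05 under ATRA, -0.24 ± 0.05 under CDK4/6i and -0.13 ± 0.05 under CDK4/6i+ATRA, and the last was -0.40 with scaling by library size alone. POLR3F (chr20:18467390-18484646, plus strand) had 16.8 to 21.0 CPM in non-treated libraries, 16.2 to 20.0 CPM under ATRA, 15.5 to 16.8 CPM under CDK4/6i and 20.2 to 25.8 CPM under CDK4/6i+ATRA. The CDK4/6i+ATRA libraries overlapped with the non-treated libraries. Its log2 fold change was -0.10 ± 0.09 under ATRA, -0.28 ± 0.10 under CDK4/6i and 0.22 ± 0.10 under CDK4/6i+ATRA, and the last was -0.046 with scaling by library size alone. The last was also 0.11 without replicate 3 of non-treated cells and 0.12 without replicate 1 of CDK4/6i+ATRA, and was not called in either case.

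**Figure D2:**
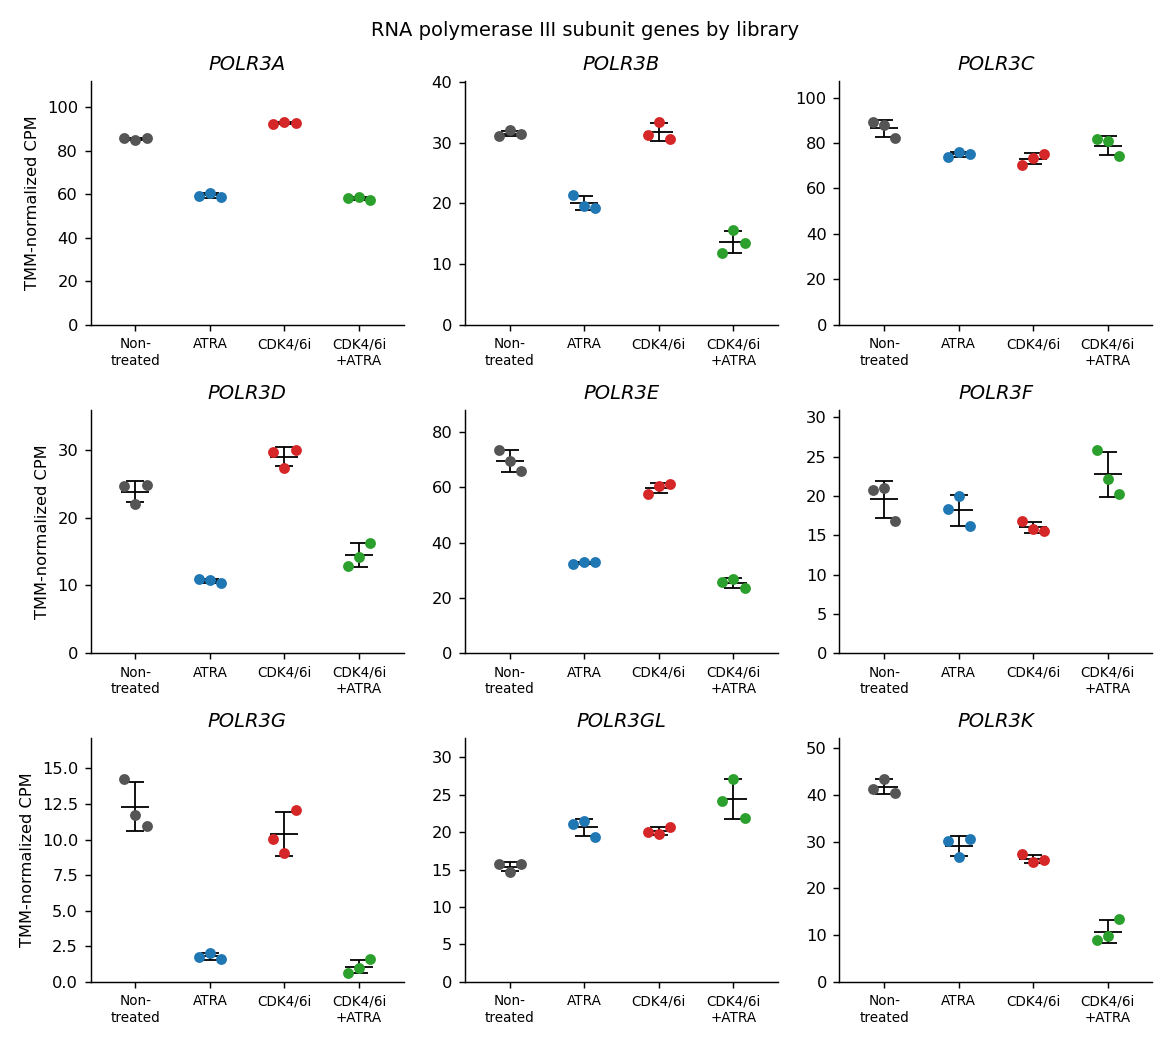
TMM-normalized level (CPM, linear axis from 0) of the 9 Pol III subunit genes in the 4 groups. Points are libraries, and horizontal marks with bars are the mean ± SD of 3 libraries. POLR3G falls from 10.97 to 14.3 CPM in non-treated libraries to 0.641 to 1.57 CPM in CDK4/6i+ATRA libraries, whereas POLR3GL goes from 14.7 to 15.8 CPM to 21.9 to 27.2 CPM.

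In non-treated cells the order of levels per length was POLR3K (30.4 ± 1.16 CPM per kb), POLR3C (19.8 ± 0.850), POLR3A (12.9 ± 0.0586), POLR3E (11.3 ± 0.628), POLR3GL (9.25 ± 0.378), POLR3F (8.42 ± 1.02), POLR3B (4.94 ± 0.0729), POLR3D (4.46 ± 0.288) and POLR3G. POLR3GL and POLR3F overlapped in their library ranges, and the other neighbors did not. Under CDK4/6i+ATRA the order was POLR3C (18.05 ± 0.914 CPM per kb), POLR3GL (14.7 ± 1.59), POLR3F (9.80 ± 1.22), POLR3A (8.81 ± 0.109), POLR3K (7.80 ± 1.81), POLR3E (4.15 ± 0.274), POLR3D (2.71 ± 0.324), POLR3B (2.14 ± 0.289) and POLR3G (0.253 ± 0.112). Here POLR3F and POLR3A overlapped, as did POLR3A and POLR3K, and POLR3D and POLR3B. POLR3K thus went from place 1 to place 5 and POLR3GL from place 5 to place 2. The order depended on the lengths. With canonical lengths POLR3E in non-treated cells was at place 3 in place of 4 (18.8 in place of 11.3 CPM per kb), POLR3A at place 5 in place of 3, and POLR3B at 7.53 in place of 4.94 CPM per kb. With these lengths the places of POLR3K were also 1 and 5, those of POLR3GL were 4 and 2, and POLR3G was at place 9 in all 4 groups.

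All 9 members passed the filter on low counts. Under ATRA, 1 member was called higher and 7 lower at an adjusted p under 0.05, where 67.6% of all 13318 tested genes were called, 32.1% higher and 35.5% lower. Under CDK4/6i, 3 were called higher (POLR3A, POLR3D and POLR3GL) and 4 lower (POLR3C, POLR3E, POLR3F and POLR3K), beside 56.2% of all genes, 28.3% higher and 27.9% lower. Under CDK4/6i+ATRA, 2 were called higher and 7 lower, beside 81.7% of all genes, 41.0% higher and 40.7% lower. The libraries of 8 members did not overlap with the non-treated libraries, which was so for 81.8% of all genes. Between CDK4/6i+ATRA and CDK4/6i, 3 members were called higher and 6 lower, beside 78.6% of all genes (39.1% higher, 39.5% lower; 78.9% did not overlap). Between CDK4/6i+ATRA and ATRA, 3 were higher and 4 lower, beside 69.8% of all genes (36.9% higher, 32.8% lower; 71.9% did not overlap). For POLR3B, POLR3E, POLR3G and POLR3K every CDK4/6i+ATRA library was below all 9 other libraries, which was so for 25.7% of all genes. The 3 comparisons with non-treated cells share those libraries, and these counts were part of what chose the members. Without replicate 3 of non-treated cells, or replicate 1 or replicate 2 of CDK4/6i+ATRA, 1 member in place of 2 was called higher under CDK4/6i+ATRA, since POLR3F lost its call. Further calls of small changes were lost with single libraries left out: POLR3C under CDK4/6i+ATRA without its replicate 3 (-0.094), POLR3A under CDK4/6i without replicate 2 of non-treated cells (0.11) or replicate 2 of CDK4/6i, and POLR3F under CDK4/6i without replicate 1 or replicate 2 of non-treated cells (-0.23 in both). Against ATRA alone, the call of POLR3F was lost without replicate 1 of CDK4/6i+ATRA (0.22), and that of POLR3C against CDK4/6i alone was lost without any of 10 of the 12 libraries (0.083 to 0.105). The median change of all tested genes under CDK4/6i+ATRA was 0.018 under TMM and -0.25 with scaling by library size alone, which called 1 member higher and 7 lower, and of all genes 4375 higher and 6431 lower in place of 5461 and 5424. With that scaling no member was called higher under CDK4/6i+ATRA over either single drug, and 7 were lower against CDK4/6i and 6 against ATRA.

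**Figure D3:**
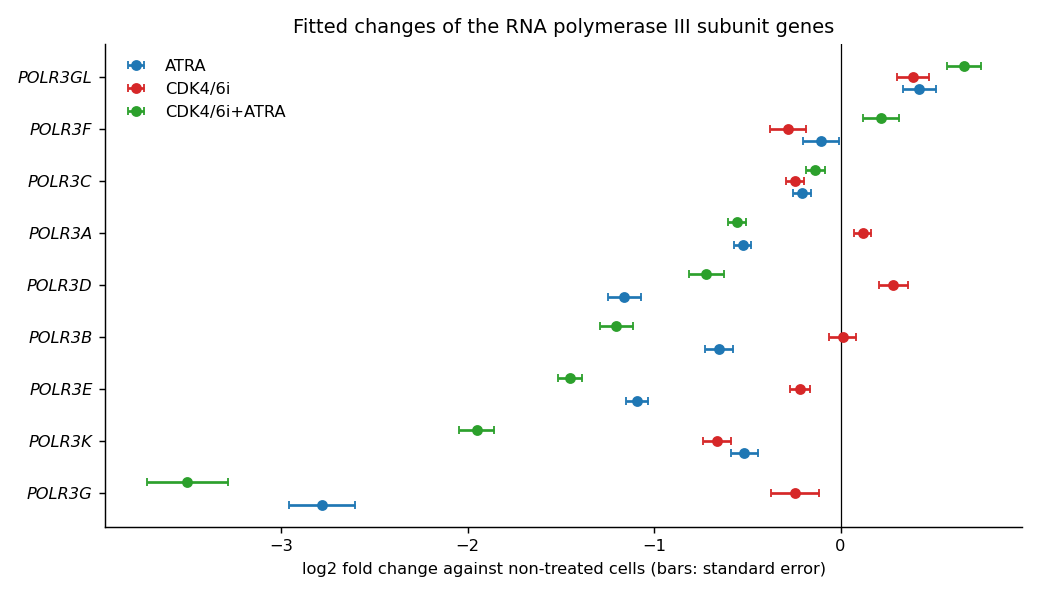
Fitted log2 fold change (horizontal axis, edgeR) of the 9 subunit genes against non-treated cells for ATRA, CDK4/6i and CDK4/6i+ATRA. Points are estimates from 3 against 3 libraries, bars are the standard error, and the vertical line marks no change. POLR3G is at -2.78 and -3.50 in the groups under ATRA and -0.24 under CDK4/6i.

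Whether the effects of the drugs added up was read from the interaction on the log2 scale, which is the change with both drugs minus the sum of the changes with each. It was -0.77 ± 0.13 for POLR3K, -0.56 ± 0.12 for POLR3B, 0.60 ± 0.14 for POLR3F and 0.32 ± 0.07 for POLR3C, and these 4 members were called. Among all tested genes 51.4% had a called interaction, which was positive for 24.5% and negative for 27.0%. For POLR3G the interaction was -0.48 ± 0.34 and for POLR3GL -0.15 ± 0.12, and neither was called. Without replicate 3 of CDK4/6i+ATRA these values were -0.89 and -0.074, without its replicate 1 that of POLR3G was -0.23, and without its replicate 2 that of POLR3GL was -0.24, with no call. With scaling by library size alone 6 members had a called negative interaction and none a positive one, and the median over all genes was -0.34.

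Promoter sequence is shown for POLR3GL, which was higher in every treated group, for POLR3K, which was lower in every treated group, and for POLR3A, which was lower under ATRA alone or combined. RefSeq promoter entries (GRCh38.p14) were matched for 7 of the 9 members, and not for POLR3G and POLR3D. Printed are the bases among the 250 before the start that lie in no annotated exon, 5′ to 3′ on the strand of the gene. Capitals mark matches on either strand to CCAAT (the NF-Y box), GGGCGG (the GC box) and CACGTG (the E-box that MYC can bind). AGGTCA, the half-site of retinoic acid receptors, was searched too and is not in the 3 windows shown. Among the windows not shown, AGGTCA lies 160 bases before a start of POLR3B, and CACGTG lies 196 bases before a start of POLR3C. POLR3B and POLR3E were likewise lower under ATRA alone or combined, and their windows hold no CACGTG. The POLR3GL stretch is chr1:145964576-145964689, plus strand, that of POLR3K chr16:53609-53827, minus strand, and that of POLR3A chr10:78029523-78029765, minus strand. The POLR3GL stretch precedes the start of the standard transcript and lies between exons of the longer deposited model.
POLR3GL: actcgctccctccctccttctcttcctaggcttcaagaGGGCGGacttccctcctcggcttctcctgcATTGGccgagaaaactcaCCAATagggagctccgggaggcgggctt
POLR3K: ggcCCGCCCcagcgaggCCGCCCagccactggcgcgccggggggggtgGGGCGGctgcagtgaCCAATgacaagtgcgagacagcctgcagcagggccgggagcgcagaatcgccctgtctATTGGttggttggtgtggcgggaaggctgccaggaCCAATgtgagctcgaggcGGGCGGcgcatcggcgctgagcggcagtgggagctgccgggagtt
POLR3A: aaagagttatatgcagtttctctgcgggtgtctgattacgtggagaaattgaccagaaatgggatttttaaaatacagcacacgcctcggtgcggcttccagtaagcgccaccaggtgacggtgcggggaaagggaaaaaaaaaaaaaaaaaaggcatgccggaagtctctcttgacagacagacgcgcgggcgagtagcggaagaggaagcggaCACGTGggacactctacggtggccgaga
The POLR3GL stretch holds 2 CCAAT matches, which begin 46 and 28 bases before the start, and 1 GGGCGG match 76 bases before it. POLR3K holds 3 CCAAT and 4 GGGCGG matches, and POLR3A holds 1 CACGTG match 35 bases before the start. Over all 35116 promoter entries, 32.0% of windows of 250 bases held CCAAT, 42.6% GGGCGG, 6.34% CACGTG and 12.1% AGGTCA. POLR3GL and POLR3K thus share motifs that are common among promoters while their levels moved in opposite directions.

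The other genes of the Pol III pathway were described through 6 lists with 74 genes, of which 56 passed the filter. These lists were drawn up with earlier results of these data known, and most genes are named for the size of their change. The p-values of named genes are therefore a description and no independent test. Under CDK4/6i+ATRA 8 rose and 39 fell against non-treated cells, and with scaling by library size alone 3 rose and 43 fell. Of all tested genes 41.0% were called higher and 40.7% lower in that comparison, which also stands beside the counts of each list below. Under ATRA 4 rose and 36 fell, beside 32.1% and 35.5% of all tested genes, and under CDK4/6i 8 rose and 29 fell, beside 28.3% and 27.9%. The median log2 fold change of these genes was -0.32 under ATRA, -0.18 under CDK4/6i and -0.72 under CDK4/6i+ATRA, beside -0.028, 0.020 and 0.018 over all tested genes.

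Of the 9 other subunits, most of them shared with Pol I or Pol II, 1 rose and 7 fell under CDK4/6i+ATRA (median -0.43). CRCP, a subunit of the stalk of the enzyme, was the one that rose, from 70.5 ± 2.92 to 86.4 ± 2.65 CPM (log2 fold change 0.29 ± 0.05, adjusted p = 5.8e-07, edgeR), and it was not called higher with scaling by library size alone. POLR2H, shared by all 3 nuclear polymerases, fell by 1.79 ± 0.06 on the log2 scale, and POLR2F, likewise shared, fell by 1.15 ± 0.06. POLR1C, shared with Pol I, fell by 0.93 ± 0.07, and POLR2E by 0.43 ± 0.04. POLR1D, the partner of POLR1C, stood at -0.051 ± 0.039 (adjusted p = 0.22), and was called lower at -0.32 with scaling by library size alone, at -0.16 without a filter and at -0.095 without replicate 3 of CDK4/6i+ATRA. The subunits of Pol III did not move as a block: with both drugs the fitted values ran from -3.50 for POLR3G to 0.66 for POLR3GL. POLR1C, POLR1D, POLR2E and POLR2F overlap a gene on the opposite strand.

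Of the 11 genes for TFIIIA, TFIIIB and TFIIIC, which place Pol III on its genes, 1 rose and 7 fell under CDK4/6i+ATRA (median -0.77). GTF3C5, a TFIIIC subunit that contacts DNA, had the largest fall of this list. It was 258.9 CPM in non-treated cells, 324.6 CPM under ATRA, 68.4 CPM under CDK4/6i and 50.4 CPM under CDK4/6i+ATRA, with log2 fold changes of 0.33 ± 0.04, -1.92 ± 0.04 and -2.36 ± 0.04 and an adjusted p of 8e-42 for the last. GTF3C5 was thus higher under ATRA and lower under CDK4/6i, while POLR3G stood at -2.78 and -0.24 in these comparisons. With both drugs GTF3C4 fell by 1.27 ± 0.06 and GTF3A, the 5S-specific factor TFIIIA, by 1.13 ± 0.04, while GTF3C1, the largest TFIIIC subunit, rose by 0.22 ± 0.05 (adjusted p = 7e-05) but stood at -0.048 with scaling by library size alone. Of the TFIIIB genes, TBP fell by 1.01 ± 0.09 and BRF1, which serves transfer RNA genes, by 0.77 ± 0.08. BRF2, which serves U6-type genes, stood at 0.30 ± 0.18 (adjusted p = 0.11) and BDP1 at -0.77 ± 0.44 (adjusted p = 0.10), the latter from 2 to 30 counts per library. BDP1 was called lower at -1.59 without replicate 1 of CDK4/6i+ATRA and at -1.03 with scaling by library size alone. Without replicate 1 of non-treated cells BRF2 was called higher at 0.44. Of 7 genes for SNAPc, which recruits Pol III to U6-type promoters, and its activators, 2 rose and 5 fell. The activator gene ZNF143 rose by 0.74 ± 0.08 and SNAPC2 by 0.99 ± 0.09, whereas the activator gene POU2F1 fell by 1.56 ± 0.08, SNAPC4 by 1.02 ± 0.08 and SNAPC1 by 0.84 ± 0.15.

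Of 9 genes for regulators and RNA-binding partners, 2 rose and 7 fell under CDK4/6i+ATRA (median -0.36). MYC, an activator of Pol III transcription, was 1291 CPM in non-treated cells, 150.4 CPM under ATRA, 1181 CPM under CDK4/6i and 84.3 CPM under CDK4/6i+ATRA. Its log2 fold change was -3.10 ± 0.05 under ATRA (adjusted p = 9.5e-46), -0.13 ± 0.04 under CDK4/6i (adjusted p = 0.007) and -3.94 ± 0.05 with both (adjusted p = 3.8e-49). MAF1, a repressor of Pol III, stood at 65.9, 57.4, 64.1 and 57.2 CPM in the same order and fell by 0.20 ± 0.06 with both drugs (adjusted p = 0.0016). RB1, another repressor and the target of CDK4 and CDK6, rose by 0.46 ± 0.04 with both drugs and by 0.53 ± 0.04 under ATRA, but fell by 0.37 ± 0.04 under CDK4/6i (adjusted p = 1.1e-11). Its relative RBL1 fell by 3.89 ± 0.09 with both drugs, fell by 2.42 ± 0.06 under CDK4/6i, and stood at -0.059 ± 0.052 under ATRA (adjusted p = 0.33). SSB, the La protein that binds the ends of new Pol III transcripts, fell by 1.38 ± 0.04.

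Pre-tRNA processing had the lowest median of the pathway lists. Of 18 genes 15 were tested, and under CDK4/6i+ATRA 1 rose and 12 fell, with a median of -1.37. RPP40 and POP7, which encode proteins of RNase P and RNase MRP, fell by 2.87 ± 0.15 and 2.39 ± 0.08. RPP38, of the same enzymes, rose by 0.43 ± 0.13 (adjusted p = 0.0021) and was not called higher with scaling by library size alone. Pol III products themselves were poorly covered: 5 of 20 listed RNAs passed the filter, and the other 15 had at most 3 counts in any library. Of the 5, RN7SK rose by 0.57 ± 0.19 (adjusted p = 0.0066) with 49 to 81 counts per library, and BCYRN1 fell by 1.18 ± 0.55 (adjusted p = 0.046) with 1 to 15 counts per library. RN7SK was not called without replicate 2 of CDK4/6i+ATRA or with scaling by library size alone, and BCYRN1 was not called by DESeq2, with the replicate block, without a filter or without any of 9 of the 12 libraries (-0.75 without replicate 2 of CDK4/6i+ATRA). These counts do not show how much Pol III product the cells made.

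**Figure D4:**
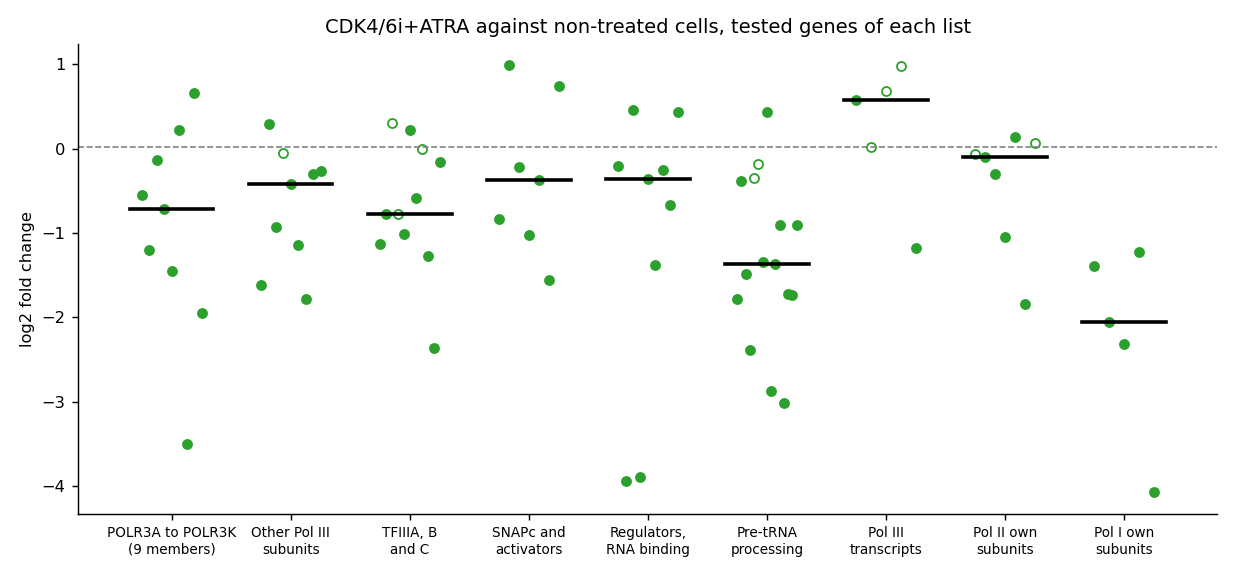
Log2 fold change (vertical axis) of each tested gene for both drugs against non-treated cells, for the 9 members, the 6 pathway lists and the subunits particular to Pol II and Pol I. Filled points passed an adjusted p under 0.05, open points did not, black bars are list medians and the dashed line is the median of all tested genes, 0.018. The medians are -1.37 for pre-tRNA processing, -0.095 for Pol II and -2.05 for Pol I.

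The 7 subunits particular to Pol II had a median of -0.095 under CDK4/6i+ATRA, and 1 rose and 4 fell. With scaling by library size alone all 7 fell. POLR2G rose by 0.14 ± 0.05 but stood at -0.13 with scaling by library size alone and was not called without replicate 3 of non-treated cells, while POLR2I fell by 1.84 ± 0.08, POLR2D by 1.05 ± 0.06 and POLR2C by 0.30 ± 0.05. Of the 6 subunits particular to Pol I, 5 were tested and all 5 fell, with a median of -2.05. POLR1G fell by 4.07 ± 0.16, POLR1E by 2.32 ± 0.08 and POLR1B by 2.05 ± 0.05. The median of the 9 Pol III members, -0.72, lay between these values, and the difference between the lists was not tested.

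The 5 genes whose levels were most like POLR3G over the 12 libraries, by Pearson correlation of log2(CPM + 1) among 9291 genes, were NUS1 (0.993), PPP2R2D (0.993), GPR85 (0.991), TOMM22 (0.990) and IPO4 (0.990). GPR85 went from 36.2 CPM in non-treated cells to 5.11 CPM under ATRA, 34.7 CPM under CDK4/6i and 2.78 CPM with both. The correlation does not reflect the size of a change. From non-treated cells to both drugs NUS1 went from 208 to 95.7 CPM and PPP2R2D from 77.3 to 38.5 CPM. TOMM22 went from 173 to 91.5 CPM and IPO4 from 131 to 31.3 CPM, whereas POLR3G was at 8.63% of its non-treated level. As many as 724 genes exceeded 0.95, so that the shape of the POLR3G pattern was a common one, whatever the size of the fall. For POLR3GL the most alike were CREBRF (0.956), SEPTIN1 (0.956), TRIM21 (0.953), ZNF75D (0.952) and COL9A2 (0.952), and 7 genes exceeded 0.95. CREBRF was 6.47, 13.3, 11.9 and 20.0 CPM in non-treated, ATRA, CDK4/6i and CDK4/6i+ATRA cells. The libraries fall into 4 groups, so that these values mainly describe group levels.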

How the data were processed

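RNA-Seq was performed on 12 libraries of HL60 cells, 3 per group (NEBNext Ultra II Directional kit). The authors deposited raw counts per gene with the exon positions and exon length of each gene. Per the labels, reads were trimmed with Trimmomatic 0.33 and aligned with STAR 2.7.11a to hg38. The study's methods name RSEM for counting, whereas the table has the layout of featureCounts; the counting's strand setting is not given in the sources used here. The columns matched sample descriptions in the labels.

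Genes were filtered with filterByExpr (13318 of 59251 kept), scaled by TMM and tested with edgeR 4.0.16 quasi-likelihood over all 4 groups (residual df 8), with p-values adjusted by Benjamini-Hochberg across these genes (threshold 0.05). The standard error was taken as the log2 fold change divided by the root of F. On data simulated for both drugs against non-treated cells (12369 genes), 179 of 200 changed genes were recovered with 5 false calls. These simulated data had few changed genes and the same spread for all genes, whereas 81.7% of genes were called in the real comparison. They therefore do not give the error rate of the calls reported here. Paralogue ratios used raw counts with a pseudocount of 0.5 added, divided by exon length, while sums and shares used CPM per kb without a pseudocount. The members and lists were chosen with earlier results of these data known. Named were the members, other Pol III subunits, TFIIIB genes, MAF1 and, per list, up to 3 genes with the largest called change in each direction with CDK4/6i+ATRA at a mean of at least 5 CPM; GPR85 and CREBRF levels and the genes of Pol III transcripts were chosen after their values were seen. Some genes that this rule names are not reported here, and counts of lists include them. Alternatives were DESeq2 1.42.0 (test and size factors), library size alone, other filters, a replicate block and leaving out each library. Standard deviations and standard errors cover the spread between these libraries, which includes counting error.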

Additional observations from a re-analysis of the deposited data

Results flagged for a closer look

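For 4 of the members the interaction term of the edgeR fit, which compares the effect of ATRA in cells with and without CDK4/6i, was called. It was -0.77 for POLR3K, -0.56 for POLR3B, 0.60 for POLR3F and 0.32 for POLR3C. The members were chosen on these same libraries, so that the calls are no test of a difference and the values are a description. For POLR3C the value was -0.0031 with scaling by library size alone.

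Of the other genes named, a negative interaction was called for RBL1 (-1.41), RPP40 (-0.83), POLR1G (-0.82), GTF3C5 (-0.77), POP7 (-0.72), MYC (-0.71), SNAPC1 (-0.69), POLR1E (-0.68), POLR2I (-0.65), POLR1B (-0.64), GTF3A (-0.60), SSB (-0.40) and POLR2H (-0.35). A positive interaction was called for RN7SK (0.81), ZNF143 (0.79), SNAPC2 (0.72), CRCP (0.57), POLR2C (0.50), RPP38 (0.46), POLR2K (0.31), RB1 (0.31) and POLR2G (0.30). These are read beside the 51.4% of all tested genes with a called interaction. With scaling by library size alone the median interaction of all genes was -0.34, and 5 in place of 9 pathway genes had a called positive interaction.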

How the results depend on the processing

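Scaling by library size alone changed the most. It turned the direction of POLR3F for both drugs against non-treated cells (-0.046), of POLR3C (-0.168) and POLR3GL (-0.0029) against CDK4/6i, of POLR3GL against ATRA (-0.067) and of the POLR3C interaction (-0.0031). It likewise turned GTF3C1 (-0.048) and POLR2G (-0.13) for both drugs against non-treated cells. For both drugs against non-treated cells it called higher 1 member, 0 other Pol III subunits, 0 TFIII genes, 1 regulator, 0 pre-tRNA processing genes, 0 Pol III transcripts and 0 Pol II subunits, and lower 7 Pol II subunits. Pathway genes called higher were 3 against non-treated cells, 6 against CDK4/6i and 3 against ATRA, and members called higher were 0 against either drug. It called 2956 of all genes higher against ATRA. For the interaction it called 0 members, 5 pathway genes and 1375 of all genes positive, and 6, 38 and 6059 negative. Without a filter, for both drugs against non-treated cells, 1 member, 0 TFIII genes, 1 regulator and 0 Pol II subunits were called higher and 0 Pol III transcripts lower, and against CDK4/6i 1 member was higher. Pol III transcripts called lower were 0 also with at least 10 counts in every library, with the replicate block and with the DESeq2 test. With at least 10 counts in every library POLR3G, BDP1 and BCYRN1 were not tested. Same-numbered libraries shared little of their deviations: of 18 correlations between them, which ran from -0.18 to 0.10, 1 exceeded 0.1. This does not exclude that same-numbered cultures were handled together. The replicate block gave 10824 calls over all genes for both drugs against 10885 without it, and its other counts of members and pathway genes stayed within 1.5 times. Leaving out each library in turn, for both drugs against non-treated cells 1 to 2 members, 1 to 2 TFIII genes, 1 to 2 regulators, 0 to 1 Pol III transcripts and 0 to 1 Pol II subunits were called higher and 0 to 1 Pol III transcripts lower, and 1 to 3 members were higher against CDK4/6i. These counts changed without replicate 1 of non-treated cells for TFIII genes, without replicate 3 of non-treated cells for Pol II, and without replicate 2 of CDK4/6i+ATRA for Pol III transcripts called higher. Members called higher against CDK4/6i were 1 without replicate 2 of CDK4/6i+ATRA and 2 without any of 9 other libraries, while 9 of the 12 libraries, left out in turn, removed BCYRN1, the Pol III transcript called lower. The regulators' count was 1 without replicate 2 or replicate 3 of non-treated cells or replicate 1 or replicate 3 of CDK4/6i+ATRA. Canonical lengths moved the POLR3GL to POLR3G log2 ratio with ATRA from 4.85 to 4.997. The 10 genes most like the paralogues depended on the measure: among the 50 most alike by Spearman correlation were 0 of the 5 named for POLR3G and 1 of the 5 for POLR3GL. The causes of these shifts were not tested. POLR3G with CDK4/6i+ATRA rests on 7 to 19 counts, the limit of depth here.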
